A study of Mus musculus with 24 samples.

Results

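The livers of mice fed a high fat diet with fish oil fatty acids (HFD-EPA/DHA) for 12 weeks were compared with the livers of mice fed the control diet for the same time. The 8 arrays were taken by their labels, 4 for each diet, from 24 in the series, and every probe set was used. Each array held the liver RNA of 1 male C57BL/6J mouse, and these mice were 10 weeks old when the diets began. HFD-EPA/DHA held more fat, mostly as coconut oil, together with corn oil and oils rich in eicosapentaenoic acid (EPA) and docosahexaenoic acid (DHA). The control diet was low in fat and held corn oil and coconut oil. HFD-EPA/DHA also held added cholesterol and more sucrose, and less corn starch, so that the marine fatty acids cannot be told apart from the other differences between these diets by this comparison alone. HFD-corn oil at 12 weeks, with the same added cholesterol and no marine oils, and the separate study of 8 weeks, in mice that were 9 weeks old at the start, are used below where a difference between diets or times was tested. The mice for the arrays were picked within each diet by body weight and plasma lipids, and the cages they came from were not given. The p-values and standard errors (SE) rest on 1 spread between mice within groups. It was estimated from the 23 arrays of all 6 groups, and not from these 8 mice alone.

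Hepatocytes make cholesterol from acetyl-CoA through mevalonate and squalene, and the enzymes of this route are switched on by the transcription factor SREBP2 when the membranes of the endoplasmic reticulum are poor in cholesterol. Long polyunsaturated fatty acids and cholesterol are known to restrain SREBP processing, and fatty acids are ligands of PPARα, the nuclear receptor that drives fatty acid oxidation in liver. The nuclear receptor CAR, encoded by Nr1i3, and its relative PXR drive the cytochrome P450 and conjugating enzymes that handle drugs, steroids and bile acids.

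Of the 41345 probe sets, 255 passed an adjusted p of 0.05 in limma, 124 of them higher and 131 lower in HFD-EPA/DHA mice. This is 0.617% of the probe sets, 0.3% higher and 0.317% lower. An unadjusted p under 0.05 was found for 3490 probe sets (8.44%). Of the 255, 220 carried a single gene symbol, 14 carried several symbols and 21 carried none. Taken by gene, with the brightest probe set standing for each of 22180 genes, 108 genes rose (0.487%) and 102 fell (0.46%), 0.947% in all. The values of the 4 HFD-EPA/DHA arrays and the 4 control arrays did not overlap for 244 of the 255 probe sets. These 255 were chosen by a test on the same arrays, which favours separate groups, so that this count adds no support. Among all probe sets, 2.28% had every HFD-EPA/DHA array above every control array and 2.64% below. The larger changes were mostly decreases, since 40 of the 131 lower probe sets and 24 of the 124 higher ones differed by 1 or more on the log2 scale. The number of higher probe sets dropped to 73, 69 and 70 without HFD-EPA/DHA mouse 1, 2 or 3, and to 72 and 80 without control mouse 2 or 4. The number of lower ones dropped to 87 without HFD-EPA/DHA mouse 3, and to 79 and 86 without control mouse 2 or 4.

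**Figure D1:**
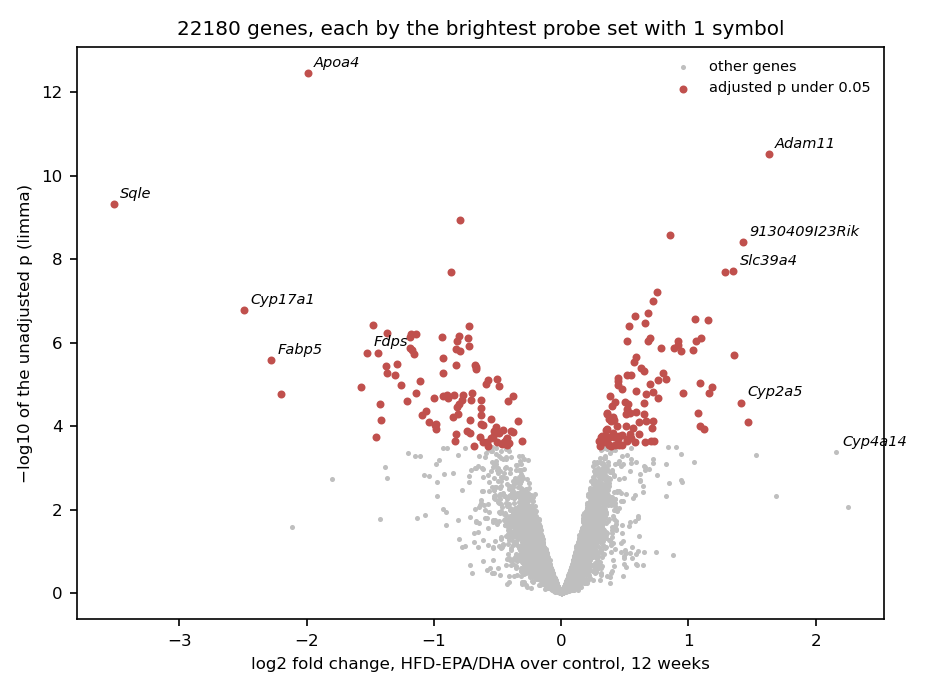
Log2 fold change of HFD-EPA/DHA over control at 12 weeks (horizontal axis) against the negative log10 of limma's unadjusted p (vertical axis) for 22180 genes, each by its brightest probe set with 1 symbol. Red points passed an adjusted p of 0.05, 108 higher and 102 lower, and Sqle lies farthest to the left at −3.51.

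Cholesterol synthesis held the largest decrease of all named genes. Of 10 measured enzymes from squalene to cholesterol, 8 fell and none rose, with a median log2 fold change of −1.08, and of 7 measured enzymes of the mevalonate route 4 fell and none rose, with a median of −0.98, while the median over all 22180 genes was 0.003. All 17 had values below 0. Sqle, squalene epoxidase, which catalyses a rate-limiting step after squalene, read 7.74, 7.10, 7.26 and 7.28 log2 units in HFD-EPA/DHA mice, against 10.23, 11.23, 11.14 and 10.84 in controls. Every HFD-EPA/DHA array was thus more than 2 log2 units below the lowest control array. The difference of −3.51 ± 0.35 (SE, n = 4 each, adjusted p = 4.2e-06) amounts to a level 11.4 times lower on the linear scale. The HFD-EPA/DHA values lay close to the array medians of 7.14 to 7.19, no background level was at hand, and this fold may understate the difference.

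The enzymes on both sides of Sqle followed the same direction. Fdps, which makes farnesyl pyrophosphate, read 11.02, 10.85, 10.27 and 10.74 in HFD-EPA/DHA mice, against 11.74, 12.37, 12.43 and 12.43 in controls, a difference of −1.52 ± 0.24 (adjusted p = 0.0013). Control mouse 1 lay well below the other 3 controls for Fdps and still above all HFD-EPA/DHA mice. Mvd, mevalonate diphosphate decarboxylase, read 7.73, 7.51, 7.32 and 7.26 in HFD-EPA/DHA mice, against 8.43, 9.43, 9.12 and 8.77 in controls, a difference of −1.48 ± 0.21 (adjusted p = 0.00064). The other enzymes called in the mevalonate route were Pmvk, phosphomevalonate kinase, at −1.21, and Fdft1, squalene synthase, at −0.88. Hmgcs1, the HMG-CoA synthase of the cytosol, read 10.15 to 10.89 in HFD-EPA/DHA mice, against 11.13 to 11.73 in controls, and did not pass the test (−0.98 ± 0.26, adjusted p = 0.095). It was singled out after its values were seen, because its promoter is among those printed.

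After squalene, Msmo1, the sterol C4 methyl oxidase, read 10.27, 10.32, 9.68 and 9.49 in HFD-EPA/DHA mice, against 11.20, 11.61, 11.53 and 11.17 in controls. The difference was −1.44 ± 0.23 (adjusted p = 0.0013). Cyp51, the lanosterol demethylase, read 8.83, 9.04, 8.48 and 9.22 in HFD-EPA/DHA mice, against 9.93, 10.69, 10.23 and 10.19 in controls, and fell by 1.37 ± 0.20 on the log2 scale (adjusted p = 0.00089). Groups were separate for each of these enzymes. Lss, which closes the first sterol ring system, fell by 1.17, Dhcr7, which catalyses the last reduction to cholesterol, by 1.37, Hsd17b7 by 0.94, Nsdhl by 0.99 and Sc5d, the lathosterol desaturase, by 0.55. The calls of Sqle, Cyp51, Msmo1, Lss, Dhcr7, Hsd17b7, Fdps, Mvd and Fdft1 were kept without any single array of the 8. That of Pmvk was lost without HFD-EPA/DHA mouse 3 (adjusted p = 0.055) and that of Nsdhl without HFD-EPA/DHA mouse 1, 2 or 3 or control mouse 2, 3 or 4 (adjusted p up to 0.12). That of Sc5d was kept only without HFD-EPA/DHA mouse 1 or control mouse 1 (adjusted p up to 0.15 without another mouse).

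**Figure D2:**
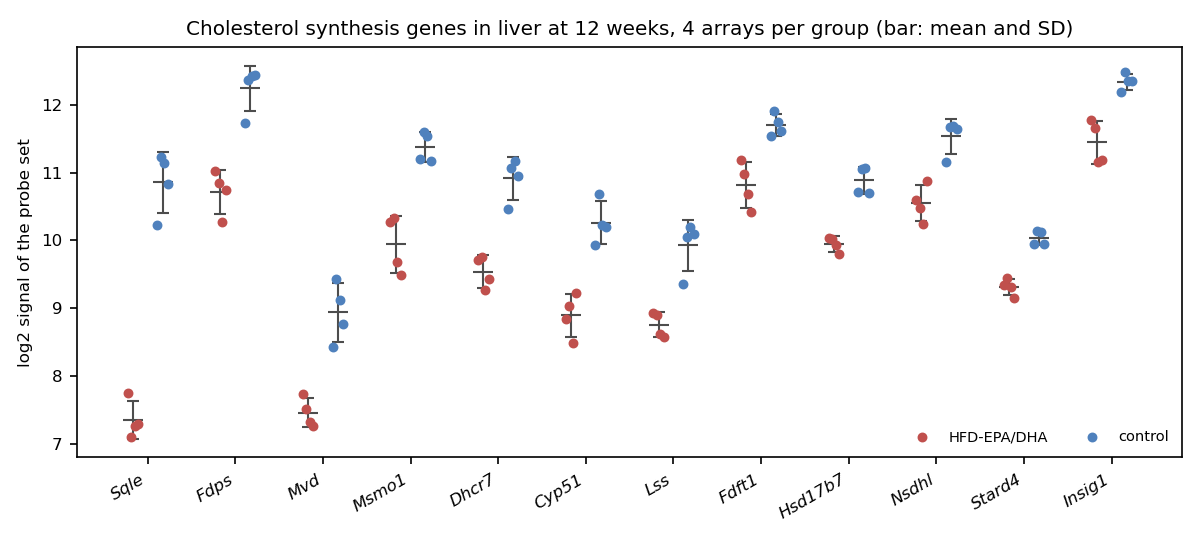
Log2 signal (vertical axis) of 12 genes of cholesterol synthesis and its regulation in single livers at 12 weeks, HFD-EPA/DHA in red to the left of control in blue for each gene, with the mean and SD of 4 arrays. The red and blue points do not overlap for any of the 12 genes, and the gap is widest for Sqle, 7.10 to 7.74 against 10.23 to 11.23.

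The promoters of the sterol genes are shown because these genes fell together. RefSeq windows of 250 bases before to 50 bases after the start (GRCm38.p6) were at hand for 27025 genes. The CCAAT box (letters CCAAT, both strands), the motif bound by NF-Y, a factor known to act beside SREBP2, was in 7 of the 7 windows of called enzymes from squalene to cholesterol, Lss, Cyp51, Msmo1, Hsd17b7, Dhcr7, Nsdhl and Sc5d, and in 41.1% of all genes. With members that did not pass, it was in 9 of 9 windows of this list and 5 of 5 of the mevalonate list. Lists with 1 called member each also held it often, in 18 of 23 windows for cell cycle genes and 16 of 20 for endoplasmic reticulum stress. A form of the sterol regulatory element (letters TCACNCCAC, both strands) was in 1.44% of all genes. It stood in the window of Hmgcs1 and in none of those of the 7 called enzymes, and a window without these letters says nothing of SREBP2. The last 150 bases before the start are printed for 7 genes, with both motifs in capitals, as ATTGG where the CCAAT box lies on the other strand. For Dhcr7, with 3 windows, the one with the most matches is printed. A match is a description of the letters and not of a site in use. The windows are Hmgcs1 at chr13:119690201-119690350 (plus strand), Mvd at chr8:122443423-122443572 (minus), Lss at chr10:76531455-76531604 (plus), Cyp51 at chr5:4104698-4104847 (minus), Msmo1 at chr8:64733579-64733728 (minus), Hsd17b7 at chr1:169969206-169969355 (minus) and Dhcr7 at chr7:143830064-143830213 (plus).
Hmgcs1: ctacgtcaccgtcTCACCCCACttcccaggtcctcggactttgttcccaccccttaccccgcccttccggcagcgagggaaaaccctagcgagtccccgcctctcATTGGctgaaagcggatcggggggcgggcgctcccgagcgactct
Mvd: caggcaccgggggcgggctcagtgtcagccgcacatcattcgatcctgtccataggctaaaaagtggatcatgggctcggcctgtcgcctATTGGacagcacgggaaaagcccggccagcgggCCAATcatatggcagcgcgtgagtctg
Lss: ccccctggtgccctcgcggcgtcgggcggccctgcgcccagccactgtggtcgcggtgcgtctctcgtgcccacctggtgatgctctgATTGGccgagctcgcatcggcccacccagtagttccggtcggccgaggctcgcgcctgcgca
Cyp51: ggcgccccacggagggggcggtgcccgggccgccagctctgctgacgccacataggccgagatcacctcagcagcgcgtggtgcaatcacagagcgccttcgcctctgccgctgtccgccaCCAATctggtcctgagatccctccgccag
Msmo1: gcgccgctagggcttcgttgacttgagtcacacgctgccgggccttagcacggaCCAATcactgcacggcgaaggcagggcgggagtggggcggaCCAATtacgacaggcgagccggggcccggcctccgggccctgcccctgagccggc
Hsd17b7: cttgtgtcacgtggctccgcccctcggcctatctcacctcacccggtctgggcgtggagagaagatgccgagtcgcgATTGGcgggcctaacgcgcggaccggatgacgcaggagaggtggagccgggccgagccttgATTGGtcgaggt
Dhcr7: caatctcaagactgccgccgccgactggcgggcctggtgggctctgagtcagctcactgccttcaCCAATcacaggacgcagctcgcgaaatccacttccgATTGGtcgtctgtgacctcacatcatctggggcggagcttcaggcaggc
Msmo1, Hsd17b7, Dhcr7 and Mvd each had 2 CCAAT boxes in the stretch shown, and Lss, Cyp51 and Hmgcs1 had 1. In Hmgcs1 the sterol element began 137 bases and the CCAAT box 45 bases before the start. The genes printed fell by between 0.94 and 1.48 on the log2 scale, except Hmgcs1, which did not pass the test.

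Genes that regulate sterol supply moved with the enzymes in part. Of 9 measured genes of SREBP2 regulation and cholesterol uptake, 3 fell, none rose and the median was −0.39. Stard4, a carrier of cholesterol between membranes, read 9.35, 9.44, 9.31 and 9.15 in HFD-EPA/DHA mice, against 9.95, 10.13, 10.12 and 9.95 in controls, a difference of −0.72 ± 0.11 (adjusted p = 0.0011). Insig1, which holds the SREBPs in the endoplasmic reticulum and is itself a target of them, read 11.16 to 11.77 in HFD-EPA/DHA mice, against 12.19 to 12.48 in controls (−0.90 ± 0.17, adjusted p = 0.0069). Rdh11, a retinol dehydrogenase that SREBPs are known to regulate, fell by 1.37 ± 0.23 (adjusted p = 0.0029). Srebf2, which encodes SREBP2, read 8.72 to 9.21 in HFD-EPA/DHA mice, against 9.39 to 9.72 in controls, and did not pass the test (−0.47, adjusted p = 0.15).

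The exporters of sterols to bile were higher. Abcg5 and Abcg8, whose products together pump sterols into bile, were the 2 of 9 measured efflux and LXR target genes that passed the test, both higher, with a median over the 9 of 0.23. The list as a whole was split, with 5 members above 0 and 4 below, the lowest at −0.72. Abcg8 read 11.26, 11.42, 11.33 and 11.17 in HFD-EPA/DHA mice, against 10.21, 10.34, 10.26 and 10.60 in controls (0.94 ± 0.15, adjusted p = 0.0012). Abcg5 read 12.30, 12.45, 12.26 and 12.16 in HFD-EPA/DHA mice, against 11.36, 11.45, 11.42 and 11.89 in controls (0.76 ± 0.13, adjusted p = 0.0038). Control mouse 4 was the highest control for both, and below all HFD-EPA/DHA mice. Abcc3, which exports conjugates and bile acids to blood, read 12.16, 12.02, 12.06 and 11.72 in HFD-EPA/DHA mice, against 11.30, 10.37, 10.88 and 11.21 in controls (1.05 ± 0.15, adjusted p = 0.00058), and was the only one of 20 measured bile acid genes to pass. Cyp7a1, the rate-limiting enzyme of bile acid synthesis, ranged from 9.83 to 11.27 in HFD-EPA/DHA mice, against 8.75 to 10.96 in controls, and the groups overlapped (0.65 ± 0.39, adjusted p = 0.72). Slc10a2, the apical bile acid transporter, named after its values were seen and in none of the lists, fell by 1.11 ± 0.20 (adjusted p = 0.0039).

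The enzymes that lengthen and desaturate polyunsaturated fatty acids were lower. Of 5 measured, 4 fell, with a median of −0.73. Elovl2, which elongates long polyunsaturated chains on the way to DHA, read 11.94, 12.00, 11.84 and 11.98 in HFD-EPA/DHA mice, against 12.61, 12.88, 12.66 and 12.77 in controls (−0.79 ± 0.08, adjusted p = 7.7e-06). The 2 groups were narrow and far apart. Fads1 and Fads2, the Δ5 and Δ6 desaturases, fell by 0.82 ± 0.12 and by 0.73 ± 0.11 (adjusted p = 0.00095 and 0.00093). For Fads2 the HFD-EPA/DHA mice read 12.39, 12.25, 11.92 and 11.84, against 12.85, 12.83, 12.78 and 12.87 in controls. Elovl5 fell by 0.64, and its call was lost without HFD-EPA/DHA mouse 3 or 4 or control mouse 2, 3 or 4 (adjusted p up to 0.17).

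De novo lipogenesis, the making of fatty acids from acetyl-CoA, had a median of −0.67 over 15 measured genes, of which 14 had values below 0 and 3 passed the test, all lower. Acly, ATP citrate lyase, which supplies acetyl-CoA, read 10.88, 11.24, 10.70 and 10.76 in HFD-EPA/DHA mice, against 11.61, 12.19, 12.31 and 12.61 in controls (−1.29 ± 0.21, adjusted p = 0.0020). Pnpla3, a lipid droplet protein under SREBP1c control, read 7.49, 7.15, 7.12 and 6.35 in HFD-EPA/DHA mice, against 7.48, 9.97, 9.35 and 10.12 in controls (−2.20 ± 0.41, adjusted p = 0.0067). Control mouse 1 lay within the HFD-EPA/DHA values, so that the groups overlapped. Acacb, the acetyl-CoA carboxylase at the mitochondrion, overlapped through the same control mouse, which read 9.97 where the other 3 controls read 11.17 to 11.37. Its decrease of 1.46 ± 0.33 (adjusted p = 0.035) lost the call without HFD-EPA/DHA mouse 3 or 4 or control mouse 2, 3 or 4 (adjusted p up to 0.17). Fasn, fatty acid synthase, named after its values were seen, read 10.69 to 12.19 in HFD-EPA/DHA mice, against 12.09 to 12.88 in controls, and did not pass the test (−1.15, adjusted p = 0.070). It passed without HFD-EPA/DHA mouse 2 or control mouse 1 (−1.39 and −1.32, adjusted p = 0.022 and 0.037).

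A part of the fatty acid oxidation genes rose, and the increases were below 1 on the log2 scale. Of 20 measured mitochondrial enzymes and carriers 6 rose, none fell and 18 had values above 0, with a median of 0.23. Of 15 peroxisomal genes 2 rose, none fell, and the median was 0.29. Slc25a20, the carnitine-acylcarnitine carrier of the inner membrane, read 11.37, 11.29, 11.38 and 11.10 in HFD-EPA/DHA mice, against 10.93, 10.63, 10.77 and 10.74 in controls (0.52 ± 0.08, adjusted p = 0.00095). Ehhadh, the bifunctional enzyme of peroxisomal oxidation, read 12.52, 12.35, 12.44 and 12.14 in HFD-EPA/DHA mice, against 11.66, 11.36, 11.58 and 11.82 in controls (0.76 ± 0.10, adjusted p = 0.00018). All HFD-EPA/DHA arrays were above all control arrays for both. Eci1, an enoyl-CoA isomerase, rose by 0.45, Acadm, the medium-chain dehydrogenase, by 0.40, Slc22a5, the carnitine importer, by 0.51, and Acaa1b, a peroxisomal thiolase, by 0.80. The call of Acadm was lost without HFD-EPA/DHA mouse 3 or control mouse 2 (adjusted p up to 0.062), and that of Slc22a5 without HFD-EPA/DHA mouse 1, 3 or 4 or control mouse 2, 3 or 4 (adjusted p up to 0.099).

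Other known PPARα targets, 17 measured, had 4 genes higher and 1 lower, with a median of 0.43. Acot1, a cytosolic acyl-CoA thioesterase, read 8.75, 8.64, 9.06 and 8.70 in HFD-EPA/DHA mice, against 7.74, 7.21, 7.78 and 7.27 in controls (1.29 ± 0.16, adjusted p = 7.5e-05). Acot2, its mitochondrial relative, read 10.02 to 10.48 in HFD-EPA/DHA mice, against 8.59 to 9.39 in controls (1.06 ± 0.16, adjusted p = 0.00095). Acot1 and Acot2 are close in sequence, and their probe sets may share signal. Vnn1, which makes pantothenate available for coenzyme A, rose by 1.18 ± 0.21 (adjusted p = 0.0050) and Retsat, retinol saturase, by 0.63 ± 0.11 (adjusted p = 0.0024). The member that fell was Fgf21, a hormone made by the liver in fasting, at 6.88, 6.58, 6.98 and 6.76 in HFD-EPA/DHA mice, against 8.80, 7.76, 7.51 and 7.88 in controls (−1.19 ± 0.19, adjusted p = 0.0012). Direct repeats of AGGNCA (both strands) with 1 base between, the kind PPARα binds, were in 0.451% of all promoter windows by gene and in none of the 12 windows at hand for peroxisomal genes or the 18 for mitochondrial ones, from which nothing follows for PPARα. Cyp4a14, a fatty acid hydroxylase and classic PPARα target, singled out after its values were seen, read 13.06, 12.63, 12.77 and 12.48 in HFD-EPA/DHA mice, against 11.45, 8.54, 11.77 and 10.54 in controls. The groups were separate, the controls spread over more than 3 log2 units, and the difference of 2.16 ± 0.53 did not pass (adjusted p = 0.060). It passed without control mouse 1 or 3 (2.45 and 2.56, adjusted p = 0.037 and 0.026).

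Genes of drug metabolism were called in 1 direction, higher. Of 37 measured Cyp2 and Cyp3 genes 8 rose and none fell, 30 had values above 0 and the median was 0.26. Their values ran from −1.08 to 2.25, which was the highest value of all 22180 genes. The member at 2.25 did not pass or had overlapping groups, since the largest increase among genes that passed with separate groups was 1.63 (Adam11). For 17 of the 37 all HFD-EPA/DHA arrays were above all control arrays, as they were for 3.2% of all genes. Cyp2a5, a coumarin hydroxylase, read 10.30, 9.92, 9.79 and 9.39 in HFD-EPA/DHA mice, against 8.90, 7.79, 8.27 and 8.77 in controls (1.41 ± 0.27, adjusted p = 0.0088). Cyp3a11, the main hepatic Cyp3a enzyme of the mouse, read 12.13, 12.21, 12.16 and 11.89 in HFD-EPA/DHA mice, against 11.45, 11.03, 11.22 and 11.14 in controls (0.89 ± 0.14, adjusted p = 0.0012). Cyp2c54 rose by 0.78, Cyp3a44 by 0.72 and Cyp2c29 by 0.45, and a second probe set of Cyp2c29 at 0.84 did not pass (adjusted p = 0.086). Members of these families are near copies of one another, and how far their probe sets share signal is uncertain. The receptor CAR was higher too, with Nr1i3 at 11.24, 11.10, 10.91 and 11.22 in HFD-EPA/DHA mice, against 10.59, 9.66, 9.81 and 10.03 in controls (1.09 ± 0.23, adjusted p = 0.023). Its call was lost without HFD-EPA/DHA mouse 1, 2 or 4 or control mouse 2, 3 or 4 (adjusted p up to 0.10), and that of Cyp2a5 without HFD-EPA/DHA mouse 1 or control mouse 2 (adjusted p up to 0.058).

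Carboxylesterases, which cleave esters of drugs and lipids, had 4 of 14 measured members higher and none lower, with a median of 0.21. Ces1g, which is known to act on triglyceride and cholesteryl ester, read 11.84, 11.74, 11.69 and 11.54 in HFD-EPA/DHA mice, against 10.80, 10.66, 11.05 and 10.86 in controls (0.86 ± 0.09, adjusted p = 1.6e-05). Ces2a read 11.65 to 11.93 in HFD-EPA/DHA mice, against 10.98 to 11.26 in controls (0.68 ± 0.09, adjusted p = 0.00047). Both groups were tight and apart for these 2 genes. Ces1e rose by 0.59 and Ces1b by 0.47, and their calls were lost without HFD-EPA/DHA mouse 1 or 2, among others (adjusted p up to 0.062 for Ces1e, also without control mouse 3, and up to 0.15 for Ces1b, also without HFD-EPA/DHA mouse 3 or control mouse 2 or 4). Of 34 conjugating enzymes Ugt2b35 rose by 0.48, a call kept only without control mouse 2 (adjusted p up to 0.15). Of 19 NRF2 targets and antioxidant enzymes Nqo1, the quinone reductase, passed with overlapping groups (8.05 to 8.58 in HFD-EPA/DHA mice, against 7.48 to 8.09 in controls), and its call was kept only without HFD-EPA/DHA mouse 4 or control mouse 3 (adjusted p up to 0.16).

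**Figure D3:**
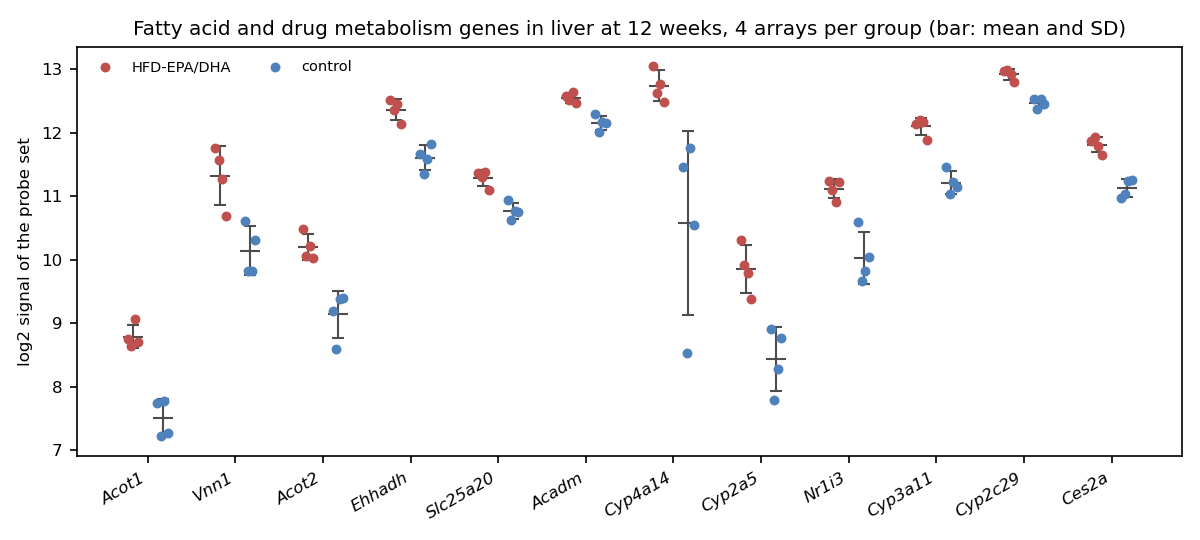
Log2 signal (vertical axis) of 12 genes of fatty acid and drug metabolism in single livers at 12 weeks, HFD-EPA/DHA in red to the left of control in blue for each gene, with the mean and SD of 4 arrays. All red points lie above all blue points, and the controls spread most for Cyp4a14, 8.54 to 11.77.

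Genes of triglyceride storage rose in part. Of 13 measured genes of triglyceride synthesis 2 rose, with a median of 0.06. Gpat3, a glycerol-phosphate acyltransferase, read 7.95, 8.11, 8.18 and 7.57 in HFD-EPA/DHA mice, against 7.02, 6.75, 6.93 and 6.72 in controls (1.09 ± 0.16, adjusted p = 0.00093). Mogat1, a monoacylglycerol acyltransferase, read 8.47, 8.05, 7.63 and 6.97 in HFD-EPA/DHA mice, against 6.47, 6.14, 6.91 and 6.95 in controls (1.16 ± 0.22, adjusted p = 0.0065). HFD-EPA/DHA mouse 4 was barely above the highest control for Mogat1. A second probe set of Gpat3 differed by 0.48 and did not pass (adjusted p = 0.21).

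Of 21 measured PPARγ targets and lipid droplet proteins 4 rose and none fell, with a median of 0.17. Hsd17b11, a dehydrogenase found on lipid droplets, read 12.27, 12.20, 12.29 and 12.17 in HFD-EPA/DHA mice, against 11.75, 11.58, 11.72 and 11.76 in controls (0.53 ± 0.08, adjusted p = 0.00064). Aldh3a2, which oxidises fatty aldehydes, rose by 0.69 ± 0.10 (adjusted p = 0.00095). Fitm1, which partitions triglyceride into droplets, rose by 0.76, and its call was lost without control mouse 2 (adjusted p = 0.051), while a second probe set of it differed by 0.21 and did not pass (adjusted p = 0.54). Cd36, a fatty acid translocase, read 11.99, 11.69, 11.32 and 10.34 in HFD-EPA/DHA mice, against 9.93, 9.92, 10.47 and 10.54 in controls. The groups overlapped through HFD-EPA/DHA mouse 4, and the call (1.12, adjusted p = 0.026) was lost without HFD-EPA/DHA mouse 1, 2 or 3 or control mouse 1 or 2 (adjusted p up to 0.14). Pparg, which encodes PPARγ, read 9.72, 9.76, 9.23 and 8.84 in HFD-EPA/DHA mice, against 8.76, 8.72, 8.72 and 8.79 in controls, and did not pass (0.64, adjusted p = 0.18). The droplet proteins Cidea and Cidec, at 0.82 and 0.95, did not pass either (adjusted p = 0.23 and 0.16). HFD-EPA/DHA mouse 4 had the lowest value of its group for Cd36, Mogat1, Pparg, Cidea and Cidec. Without this mouse, 3 of the genes named in the text that had not passed did so, Lgals1 (below) among them.

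Apoa4, an apolipoprotein of chylomicrons and hepatic lipid export, had the smallest p of all named genes. It read 11.21, 11.18, 10.97 and 10.81 in HFD-EPA/DHA mice, against 13.20, 12.998, 13.03 and 12.90 in controls (−1.99 ± 0.14, adjusted p = 7.1e-09), a level 3.97 times lower. Apom, the carrier of sphingosine-1-phosphate on lipoproteins, was the other of 19 measured genes of lipoprotein metabolism to pass, and fell by 0.48 ± 0.09 (adjusted p = 0.0046), while Apoa5, at −0.17, did not pass. Fabp5, a fatty acid binding protein, read 9.72, 9.52, 8.96 and 10.78 in HFD-EPA/DHA mice, against 10.81, 12.78, 12.03 and 12.46 in controls (−2.28 ± 0.37, adjusted p = 0.0017). HFD-EPA/DHA mouse 4 and control mouse 1 nearly met. Fabp5 has several near copies in the mouse genome, and its 3 other probe sets with that symbol had the same direction. Fabp2, at −0.42, did not pass (adjusted p = 0.24).

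Steroid and retinoid enzymes moved both ways. Cyp17a1, the 17-hydroxylase and lyase of steroid synthesis, which mouse liver also expresses, read 9.07, 9.07, 7.44 and 8.11 in HFD-EPA/DHA mice, against 10.43, 10.58, 11.18 and 11.47 in controls (−2.49 ± 0.34, adjusted p = 0.00043). The gap between the groups was more than 1 log2 unit. Hsd17b6, which oxidises androgen metabolites and retinol, read 12.03, 12.09, 12.38 and 12.59 in HFD-EPA/DHA mice, against 11.41, 10.76, 11.29 and 11.33 in controls (1.07 ± 0.22, adjusted p = 0.014). Cyp39a1, an oxysterol hydroxylase, fell by 1.41 ± 0.29 (adjusted p = 0.019), and these 3 were the called members of 12 in steroid metabolism. The call of Hsd17b6 was lost without HFD-EPA/DHA mouse 3 or 4 or control mouse 2 (adjusted p up to 0.078), and that of Cyp39a1 without HFD-EPA/DHA mouse 3 or 4 or control mouse 1 or 4 (adjusted p up to 0.11). Of 18 retinoid genes, Bco1, which cleaves β-carotene, fell by 0.67 ± 0.11 (adjusted p = 0.0025), and Retsat and Aldh1a1, a retinaldehyde dehydrogenase, rose. The call of Aldh1a1 was lost without HFD-EPA/DHA mouse 1, 2 or 3 or control mouse 2 or 4 (adjusted p up to 0.12).

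Several of the largest changes lay outside these pathways. Adam11, a catalytically inactive member of the disintegrin family best known in neurons, had the largest increase among genes that passed the test with separate groups, with 9.18, 9.29, 9.24 and 8.78 in HFD-EPA/DHA mice, against 7.43, 7.28, 7.78 and 7.48 in controls (1.63 ± 0.14, adjusted p = 4.1e-07). The unnamed transcript 9130409I23Rik read 9.14, 9.39, 9.36 and 8.46 in HFD-EPA/DHA mice, against 7.71, 7.38, 7.74 and 7.81 in controls (1.43 ± 0.16, adjusted p = 2.0e-05). Slc39a4, the zinc importer ZIP4, read 9.51, 9.91, 10.25 and 10.04 in HFD-EPA/DHA mice, against 8.87, 8.51, 8.72 and 8.20 in controls (1.35 ± 0.16, adjusted p = 7.5e-05). It was the only one of 9 measured metallothioneins and zinc transporters to pass. Krt23, a keratin, was narrow within each group, at 8.07 to 8.25 in HFD-EPA/DHA mice, against 6.59 to 6.87 in controls (1.36 ± 0.22, adjusted p = 0.0014). Clec2h, a C-type lectin, read 9.03 to 10.41 in HFD-EPA/DHA mice, against 7.66 to 8.89 in controls (1.47 ± 0.31), and its call (adjusted p = 0.020) was lost without HFD-EPA/DHA mouse 3 or 4 or control mouse 1, 2 or 4 (adjusted p up to 0.12). Ildr2 rose by 1.16, Serpinb1a, an inhibitor of neutrophil proteases, by 1.09 and Sema5b, a semaphorin, by 0.92. A second probe set of Ildr2 differed by 0.11 and did not pass (adjusted p = 0.89). Lgals1, galectin-1, read 11.48, 11.43, 11.15 and 10.29 in HFD-EPA/DHA mice, against 10.30, 9.96, 10.35 and 10.37 in controls (0.84, adjusted p = 0.051), and passed without HFD-EPA/DHA mouse 4 (1.11, adjusted p = 0.00084). Etnppl and Mreg, at 0.43 and 0.47, did not pass (adjusted p = 0.51 and 0.22).

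Among the decreases, Adgrf1, an adhesion G protein-coupled receptor, read 7.79, 8.24, 8.95 and 9.23 in HFD-EPA/DHA mice, against 9.42, 10.90, 10.11 and 10.09 in controls (−1.58 ± 0.29, adjusted p = 0.0050). The transcript 9430037G07Rik fell by 1.42 ± 0.28 (adjusted p = 0.0091, and 0.052 without control mouse 3), and Pdzk1ip1, a small membrane protein, by 1.31 ± 0.23 (adjusted p = 0.0031). Ppard, which encodes PPARδ, and Nr1i3 were the only called genes of 24 measured nuclear receptors and cofactors. Ppard read 8.12, 8.21, 8.28 and 8.13 in HFD-EPA/DHA mice, against 8.54, 9.35, 9.48 and 8.66 in controls (−0.83, adjusted p = 0.032), and its call was kept only without control mouse 1 or 4 (adjusted p up to 0.15). Atf5, a transcription factor of the stress response, fell by 0.67 ± 0.11 (adjusted p = 0.0021), alone among 23 measured genes of endoplasmic reticulum stress. Ccnd1, cyclin D1, fell by 0.81 (adjusted p = 0.0092, and 0.052 without control mouse 2), alone among 28 cell cycle genes, and Btg2 by 0.69, alone among 20 immediate early genes, a call kept only without HFD-EPA/DHA mouse 1 (adjusted p up to 0.15).

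**Figure D4:**
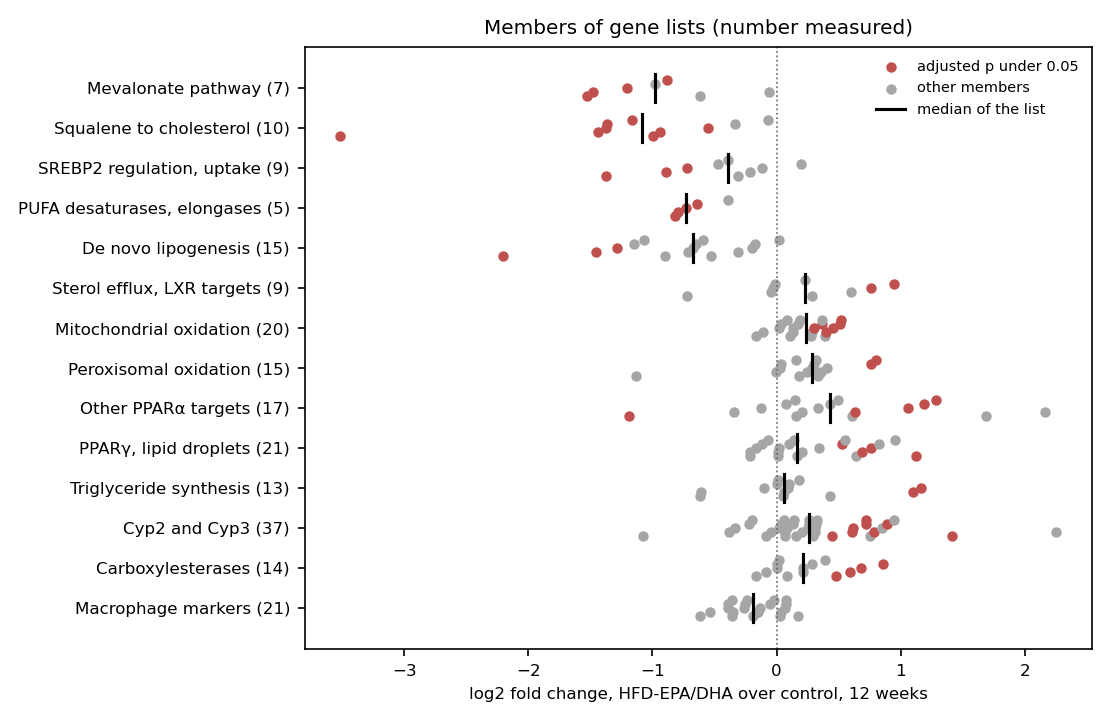
Log2 fold change of HFD-EPA/DHA over control at 12 weeks (horizontal axis) for the measured members of 14 gene lists (rows, number measured in brackets), red where the adjusted p was under 0.05, with the median as a black bar. The medians of the 2 cholesterol synthesis lists lie at −0.98 and −1.08. Those of the oxidation, Cyp and carboxylesterase lists lie between 0.21 and 0.29, and that of other PPARα targets at 0.43.

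Many other lists had no called member. None of 25 interferon-stimulated genes, 17 MHC class I genes, 21 chemokines and receptors, 23 acute phase reactants, 30 coagulation and complement genes, 21 genes of glucose metabolism and insulin signalling, 10 ketone and fasting fuel genes, 33 respiratory chain subunits, 31 genes of the urea cycle and amino acid catabolism or 25 ribosomal proteins passed, with medians between −0.16 and 0.07. The lowest of these medians was that of the MHC class I genes, of which 14 of 17 were below 0. For 4 of the 17 all HFD-EPA/DHA arrays were below all control arrays, as they were for 592 of all 22180 genes. The liver label was borne out by hepatocyte markers, 9 measured, which averaged 12.40 to 12.58 log2 units in HFD-EPA/DHA mice, against 12.49 to 12.56 in controls, with no called member. Macrophage and Kupffer cell markers had no called member of 21 and a median of −0.19, and 15 of the 21 were below 0. Their mean level was 8.45 to 8.61 in HFD-EPA/DHA mice, against 8.54 to 8.85 in controls. Marco, a scavenger receptor of Kupffer cells, read 6.71, 6.74, 6.86 and 6.71 in HFD-EPA/DHA mice, against 6.96, 7.11, 7.10 and 8.30 in controls (−0.62, adjusted p = 0.21), and Timd4 differed by −0.53 (adjusted p = 0.42). In whole liver, fewer cells of a type and less RNA per cell cannot be told apart. None of 19 stellate cell, 12 endothelial, 6 cholangiocyte or 15 lymphocyte and neutrophil markers passed. Of 7 adipocyte markers Car3, a carbonic anhydrase that hepatocytes also express, rose by 0.36, a call lost without HFD-EPA/DHA mouse 1, 2 or 3 or control mouse 4 (adjusted p up to 0.070), and its other probe set had the opposite direction.

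Genes of the circadian clock vary with the hour at which a mouse is killed. The study killed its mice over several consecutive days, with some but not all of the diets taken on each day. The labels do not give the day or hour of each array, and the part of either was not tested. None of 18 measured core clock genes passed, and their median was 0.29 at 12 weeks and −0.41 at 8 weeks. The change from 8 to 12 weeks had a median of 0.63 over the 18, of which 11 had an unadjusted p under 0.05 for it. A clock score, the mean of Dbp, Tef, Per3, Nr1d1, Nr1d2 and Ciart minus the mean of Arntl, Npas2, Clock, Cry1 and Nfil3, which peak at another time of day, ranged from −1.0 to 0.22 in HFD-EPA/DHA mice, against −1.99 to −0.57 in controls, so the groups overlapped (difference 0.81, exact permutation test, two-sided, p = 0.14, where 0.029 is the smallest p that 4 against 4 mice allow). With the score as a covariate, an alternative chosen after the data were seen, 120 probe sets were higher and 158 lower. At 8 weeks the score ranged from −2.31 to 2.14 in HFD-EPA/DHA mice, against 0.54 to 2.18 in controls, and its part in differences between the times was not tested.

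The same diets were compared at 8 weeks in other mice, with no shared arrays, where 183 probe sets passed (0.443%), 58 higher (0.14%) and 125 lower (0.302%). Of these, 97 passed at both times, 27 higher and 70 lower, and all 97 had the same sign. They made up 38% of the 12-week calls and 53% of the 8-week calls. Of the 255 called at 12 weeks, 243 (95.3%) had the same sign at 8 weeks, against 53.3% of all probe sets. At 8 weeks Sqle differed by −3.42, and the medians were −1.11 for the mevalonate list and −1.16 for the list from squalene to cholesterol. Stard4 differed by −0.72 at 12 weeks and −1.27 at 8 weeks, a change of 0.55 (95% interval 0.22 to 0.87) that did not pass after adjustment (adjusted p = 0.98). The medians at 12 and 8 weeks were 0.23 and 0.09 for mitochondrial oxidation, 0.29 and 0.08 for peroxisomal oxidation, 0.43 and −0.05 for other PPARα targets, and 0.26 and 0.15 for Cyp2 and Cyp3 genes. For sterol efflux and LXR targets the median was 0.23 at both times.

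The change of the difference between 8 and 12 weeks was tested for every probe set, and none passed, while 2045 (4.95%) had an unadjusted p under 0.05. Among the 255 called probe sets, 66 had an unadjusted p under 0.05 for the change, and 200 had a larger absolute fold change at 12 than at 8 weeks. The 12-week call was used to choose these, which favours larger values at 12 weeks. Vnn1 differed by 1.18 at 12 weeks and 0.09 at 8 weeks, a change of 1.10 (95% interval 0.47 to 1.72), Clec2h by 1.47 and 0.14, a change of 1.33 (0.42 to 2.23), and 9430037G07Rik by −1.42 and −0.11, a change of −1.31 (−2.12 to −0.51). None of the 3 changes passed after adjustment (adjusted p = 0.98 for 9430037G07Rik). For Sqle the change was −0.09, with a 95% interval of −1.11 to 0.92, which leaves room for a change of about a log2 unit either way.

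The fat in the diet was compared directly at 12 weeks, HFD-EPA/DHA against HFD-corn oil. In this test 4 probe sets were lower with EPA/DHA and none was higher (0.00967% and 0%), and 1913 (4.63%) had an unadjusted p under 0.05. The 4 were Apoa4 at −1.55 (95% interval −1.83 to −1.26, adjusted p = 2.5e-06), Stap1, a signal adaptor, at −1.55 (−1.99 to −1.11, adjusted p = 0.0016), Gpc1, the heparan sulfate proteoglycan glypican-1, at −0.79 (−1.01 to −0.57, adjusted p = 0.0016), and a probe set with no symbol at −1.28. Stap1 and Gpc1 were named for this test after their values were seen. Stap1 read 7.64, 7.96, 7.30 and 7.38 in HFD-EPA/DHA mice, against 8.68, 8.49, 8.86 and 8.81 in controls, and differed by −1.14 in HFD-EPA/DHA mice and by 0.41 in HFD-corn oil mice from the same controls. Apoa4 differed by −1.99 and −0.44 in the same comparisons, and Gpc1 by −0.59 and 0.20. A second probe set of Gpc1 differed by −0.02 between HFD-EPA/DHA and control (adjusted p = 0.99).

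Against the shared controls, HFD-corn oil had 74 called probe sets (0.179%), 44 higher (0.106%) and 30 lower (0.0726%). Sqle differed by −3.51 in HFD-EPA/DHA and −2.85 in HFD-corn oil mice, and the direct difference was −0.67 (95% interval −1.39 to 0.05). For Adam11 the values were 1.63 and 1.60, with a direct difference of 0.03 (−0.26 to 0.31), and for 9130409I23Rik 1.43 and 1.57, with −0.15 (−0.47 to 0.18). These intervals bound how far the diets could differ for these genes, and do not show that they were equal. Slc39a4 differed by 1.35 and 0.49 (direct difference 0.87, 0.53 to 1.20), Acot1 by 1.29 and 0.55 (0.73, 0.41 to 1.05), Hsd17b6 by 1.07 and −0.01 (1.08, 0.64 to 1.53), Retsat by 0.63 and 0.11 (0.52, 0.30 to 0.73) and Elovl2 by −0.79 and −0.39 (−0.40, −0.57 to −0.23). Their intervals lie on one side of 0, but none of these direct differences passed after adjustment over all probe sets.

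**Figure D5:**
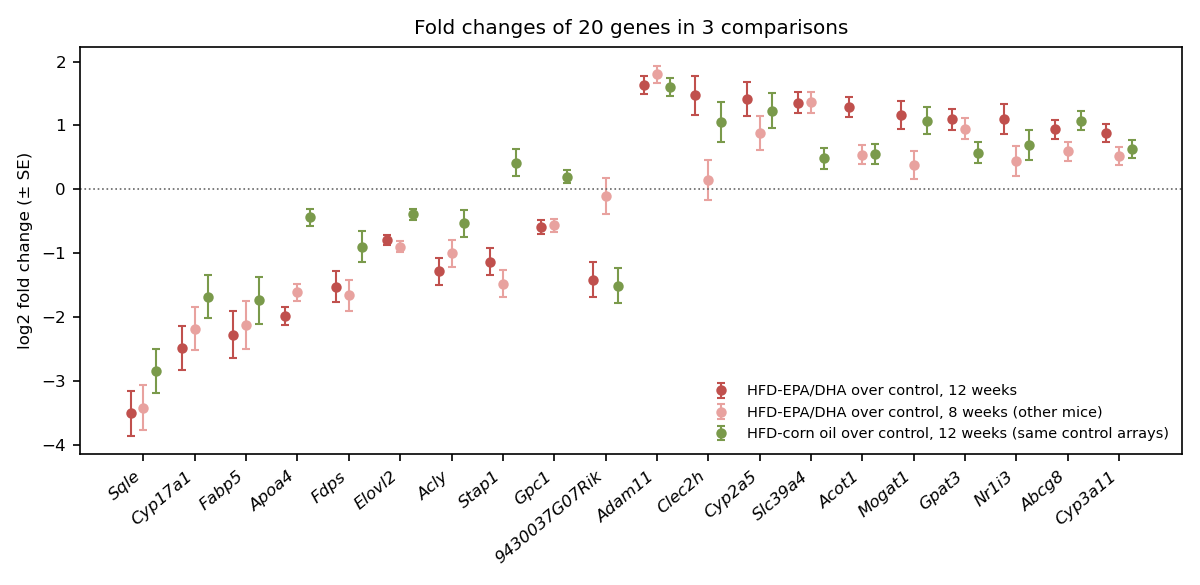
Log2 fold change with its SE (vertical axis) of 20 genes (horizontal axis) for HFD-EPA/DHA over control at 12 weeks (red), the same at 8 weeks in other mice (pink) and HFD-corn oil over control at 12 weeks (green, with the same control arrays as the red points). Apoa4, Stap1 and Gpc1 have green points apart from the red ones, while Sqle and Adam11 have all 3 on one side of 0.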

How the data were processed

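Liver RNA of single mice was measured on Mouse Gene 2.0 ST arrays of Affymetrix. The authors used Affymetrix Expression Console to summarise perfect match probes by iter-PLIER with quantile normalization, which gave the deposited log2 values. The study calls its normalized values log2, and the deposited values, 4.61 to 13.89, were read on that scale. Quantile normalization gives all arrays one distribution, and differences are relative to it. No filter or offset was applied here, and the number of arrays limits the precision.

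All 6 groups, 23 arrays, entered 1 limma fit (version 3.58.1, R 4.3.3: lmFit, contrasts.fit, eBayes), so that all groups share 1 estimate of spread. The array of HFD-corn oil at 8 weeks that the study removed was left out. Tests are two-sided, with Benjamini-Hochberg adjustment over all 41345 probe sets and a threshold of 0.05. Symbols came from the platform annotation, which gave 23521 probe sets 1 symbol, 1820 several and 16004 none, and were updated through RefSeq. Genes without a probe set of 1 symbol, and those with several, are not analysed here. The fit was tested on simulated data with 41345 probe sets for this comparison and recovered 93% of changes of 1 and 55% of changes of 0.5 on the log2 scale.

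The named genes are up to 15 higher and 15 lower with the largest changes, 1 symbol, a passed test and separate groups. Added to these are up to 4 members of each list with the smallest p, and genes named in the study's figures. The exceptions are the genes said to be named after their values were seen, and Cyp7a1, Nsdhl and Sc5d, which were named in that way too. The groups compared and the gene lists were chosen with earlier results of these data known. Counts and medians describe lists, and no list was tested. Promoter sequences are RefSeq's (GRCm38.p6).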

Additional observations from a re-analysis of the deposited data

Results flagged for a closer look

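In 7 of the 194 groups of 4 mice behind the genes named above, 1 mouse stood apart from the other 3 by more than Dixon's limit for 4 values, and chance alone gives about 1 in 20 groups. Fdps read 11.74 in control mouse 1 and 12.37 to 12.43 in the other controls, Nsdhl 11.15 in the same mouse and 11.64 to 11.69 in the others, and Acacb 9.97 in the same mouse and 11.17 to 11.37 in the others. Krt23 read 6.59 in control mouse 2 and 6.83 to 6.87 in the other controls. Abcg5 read 11.89 in control mouse 4 and 11.36 to 11.45 in the others, and Marco 8.30 in that mouse and 6.96 to 7.11 in the others. Nqo1 read 8.05 in HFD-EPA/DHA mouse 4 and 8.54 to 8.58 in the other HFD-EPA/DHA mice.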

How the results depend on the processing

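All 81 called genes named above kept their direction under every alternative run. They were called by a test on these same arrays, and several alternatives cannot alter a fold change. Among those are all 24 arrays, the 8 arrays alone, and the trend and robust settings, so that the kept direction adds little support. Of the 81, 57 kept the call without any single array of the 8, while 30 lost it under at least 1 alternative. With all 24 arrays 16 named genes lost the call, with the 8 arrays alone 13, and with only the 12-week arrays 10. Slc10a2 and Stap1 kept it without any single array but lost it with all 24 (adjusted p = 0.064 and 0.18). The same held for Mogat1, Serpinb1a, Eci1 and Pnpla3 with the 8 arrays alone (adjusted p = 0.085, 0.072, 0.051 and 0.051). Over the alternatives, limma's adjusted p reached 0.71 for Acadm, 0.53 for Ugt2b35, 0.36 for Car3, 0.32 for Aldh1a1 and 0.19 for Hsd17b6. With all 24 arrays, the numbers of probe sets higher and lower in HFD-EPA/DHA were 62 and 85 (the cause was not tested). With the 8 arrays alone, 81 were higher and 152 lower, and higher ones made up 34.8% of calls, against 48.6%. With only the 12-week arrays, 98 were higher and 132 lower. Leaving out 1 array gave 69 to 130 higher and 79 to 175 lower. The offset, the filters, the 2 renormalizations, the trend and robust settings and the array weights gave 139 to 163 higher and 123 to 158 lower. Replicate numbers recur in both groups and nothing in the labels pairs the mice, though the day of killing is not known for each. After removal of group means, same-numbered mice had correlations of 0.18, 0.07, 0.05 and −0.08. With the replicate block 110 probe sets were higher and 132 lower. The change from 8 to 12 weeks had 0 calls throughout, the block included. Against HFD-corn oil, 0 probe sets were higher, 0 to 1 when 1 array was left out. Lower ones numbered 4 to 5 without 1 array, 5 with the block, 3 with all 24 arrays and 6 with the trend and robust settings.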
